A study of Mus musculus with 11 samples.

Results

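Neuronal nicotinic acetylcholine receptors and the small membrane-anchored proteins that tune them were followed through sorted cells of the neonatal mouse ventricular-subventricular zone (V-SVZ), the neurogenic layer along the lateral ventricle. The set holds 9 of the 39179 genes in the count table. It was chosen by gene name with the results of the same comparison already in view, so its differences between groups are given as a description and not as tests. The members are the modulators Lypd6, Lypd6b, Lypd1 and Lynx1 and the receptor subunits Chrna3, Chrna4, Chrna5, Chrna7 and Chrnb2.

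The data are RNA-seq read counts from 11 libraries of GFP-positive cells sorted by flow cytometry from the V-SVZ of CD1/Swiss mice at postnatal day 2. The 6 control libraries are Gsh2-Cre; Zeb2fl/wt and the 5 mutant libraries are Gsh2-Cre; Zeb2fl/ko, and the series describes both with the RCE reporter, which turns on GFP where Cre has acted. Cre and 1 floxed Zeb2 allele are therefore shared by both groups, and the controls keep 1 wild-type allele while the mutants carry a knockout allele in its place. Gsh2-Cre is driven from a gene of ventral forebrain progenitors, so the sorted cells are their descendants together with whatever other cells the reporter marked. The labels do not say that the libraries came from separate animals, so that a p-value reflects only the spread from library to library.

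Nicotinic receptors are pentameric cation channels opened by acetylcholine. Subunits alpha4 and beta2 join into the high-affinity receptor of the forebrain, alpha7 forms a receptor of its own kind, alpha3 pairs mainly with beta4, and alpha5 is an accessory subunit that needs partners to be part of a channel. Lynx1, Lypd1, Lypd6 and Lypd6b belong to the Ly6 family, whose members share the fold of snake neurotoxins and change how nicotinic receptors assemble, travel to the surface or respond. Lypd6 is also known as a component of Wnt signalling, and in the cortex it is known from somatostatin interneurons.

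Totals ran from 6833981 to 13073505 counts per library, and 16836 to 18649 genes had a count. Levels are given as CPM, read counts relative to library size with TMM scaling, and log2 fold changes with their standard errors (SE) compare mutants with controls in an edgeR quasi-likelihood fit over 14104 genes. Zeb2 itself read 154 to 281 CPM in the controls and 214 to 365 CPM in the mutants, with a log2 fold change of 0.35 (SE 0.165, adjusted p = 0.294). Counts over the whole gene can include transcripts that lack the floxed part, so they do not check the genotype. Summed markers of the ventral forebrain lineage stood at 2329 to 3574 CPM in the controls and 2798 to 3320 CPM in the mutants. Of these 10 genes 1 was called, Gad2, at 216 to 423 CPM in the controls and 553 to 757 CPM in the mutants (edgeR adjusted p = 0.000894). Summed pallial excitatory markers stayed at 89.0 CPM or less in each of the 11 libraries. Summed ependymal and choroid plexus markers were 3.97 to 10.9 CPM in the controls. In the mutants their median was 6.53 CPM, with 213 CPM in mutant 5. Y-linked counts were present in 4 control libraries and at 0 in the other 2 and in all 5 mutant libraries, so sex and genotype are in part confounded.

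Of the 9 members, 8 had enough counts to be tested, and Chrna5 did not. In the fit over all genes 2 of those 8, Lypd6 and Lypd6b, lay past an adjusted p of 0.05, both higher in the mutants; of all genes tested, 4.42% were past it in either direction and 2.68% in that direction. Because this contrast was known when the members were chosen, nothing is read from that share. Libraries of the groups did not overlap for 3 members, Lypd6, Lypd6b and Chrnb2, each higher in the mutants, while 4.91% of all tested genes had groups that did not overlap and 2.89% had the mutants higher. The median log2 fold change was 0.01 over the 8 members and -0.02 over all genes. Outside the edge of the threshold, the nearest members by adjusted p were Lypd1, Chrnb2 and Chrna4, with log2 fold changes of 0.66, 0.37 and -1.34. In sorted bulk samples, fewer cells of a type and less RNA per cell cannot be told apart, and the same holds for more.

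**Figure D1:**
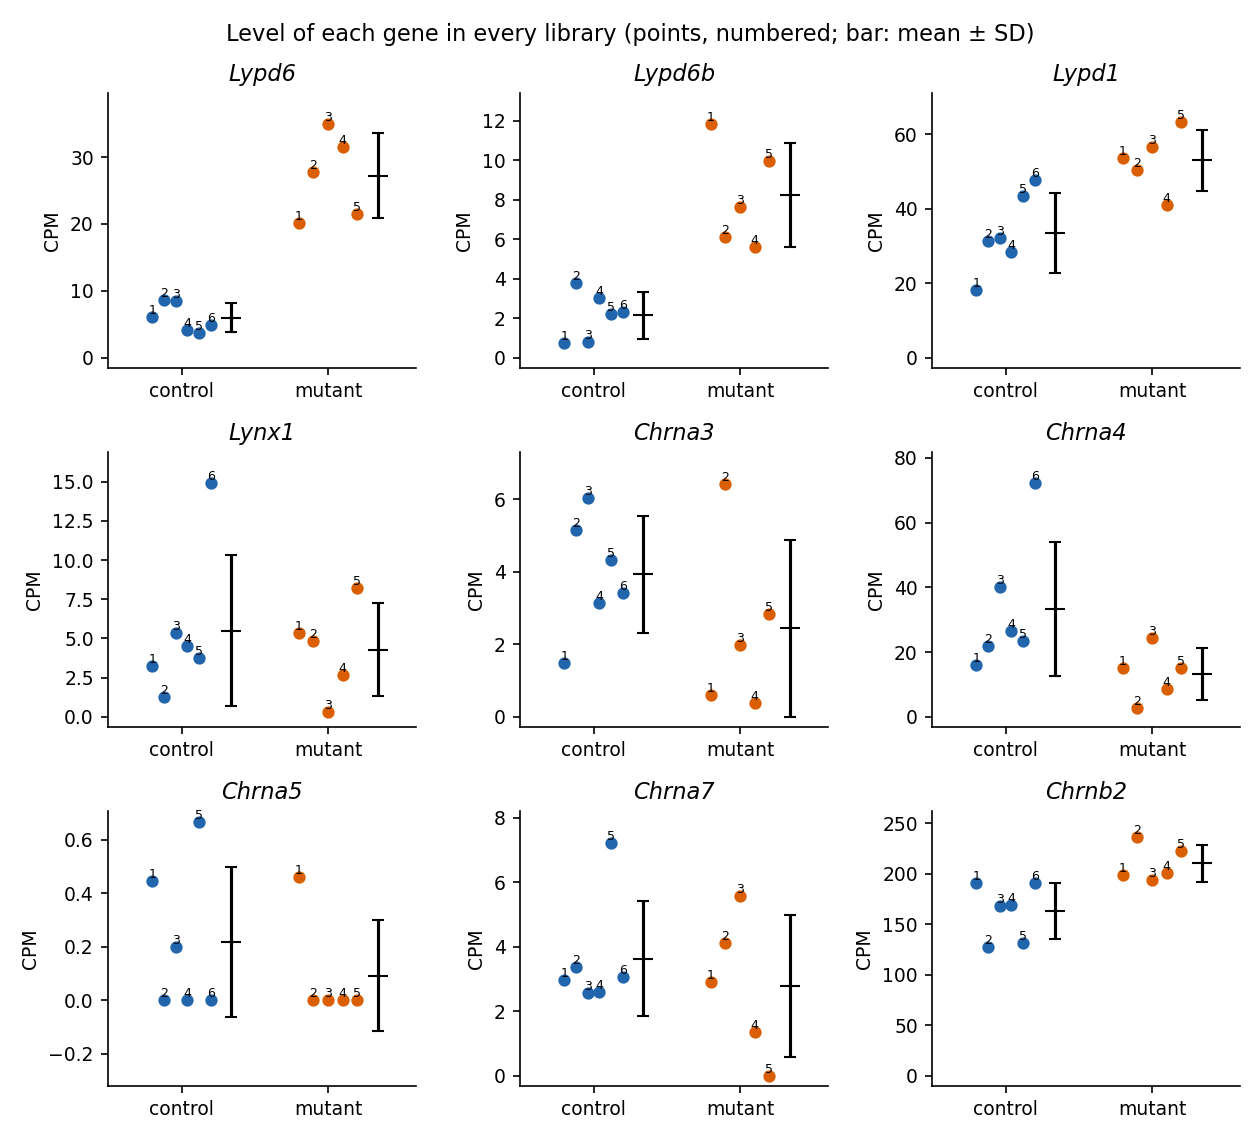
Level of each of the 9 genes in CPM (linear axis, own scale in each panel) in the 6 control and 5 mutant libraries, with the library number at each point; the bar beside each group is the mean with 1 SD. Lypd6 and Lypd6b separate the groups fully, Chrnb2 by a small margin, and the 72.1 CPM of Chrna4 and 14.9 CPM of Lynx1 both belong to control 6.

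The region just upstream of Lypd6 is shown because its level differed most and because Zeb2 is a zinc-finger factor known to bind E-box sequences of the form CACCTG. RefSeq's promoter table for build GRCm38.p6 held windows for 7 of the 9 members, 10 windows in all, and none for Lypd6b and Lynx1. The 250 bases before each start were searched for CACCTG and for CAGGTG, which is the same motif read on the other strand. The motif was present in 4 of the 10 member windows and in 17.2% of the 32851 windows of the same length in the table. In the Lypd6 window it begins at -199, where -1 is the base before the start, and it is in capitals in the first sequence below. The Chrnb2 window, upstream of the most abundant subunit, holds neither form and is given as an example without the motif. It is no contrast in level, since Chrnb2 too was higher in every mutant library than in every control.
Lypd6 (chr2:50066179-50066428, plus strand, GRCm38.p6): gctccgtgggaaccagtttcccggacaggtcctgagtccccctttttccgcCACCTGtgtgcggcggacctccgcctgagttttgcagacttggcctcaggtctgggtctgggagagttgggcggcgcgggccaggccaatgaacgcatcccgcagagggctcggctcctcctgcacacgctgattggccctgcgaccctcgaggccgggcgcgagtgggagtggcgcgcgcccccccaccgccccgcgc
Chrnb2 (chr3:89764633-89764882, minus strand, GRCm38.p6): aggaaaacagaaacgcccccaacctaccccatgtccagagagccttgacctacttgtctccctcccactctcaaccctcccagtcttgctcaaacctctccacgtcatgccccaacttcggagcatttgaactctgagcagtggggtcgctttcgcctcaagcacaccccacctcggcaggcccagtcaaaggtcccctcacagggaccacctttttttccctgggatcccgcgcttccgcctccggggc
The other matches lie before alternative starts of Lypd1, at -218 and -79 in separate windows, and before a start of Chrna5, at -224 and -172 in the same window. They are shown with 10 bases on each side, 5′ to 3′ on the strand of the gene.
Lypd1 at -218 (chr1:125912417-125912442, minus strand): gtcctgatggCACCTGctgcgcccta
Lypd1 at -79 (chr1:125911451-125911476, minus strand): gcgacgctgaCAGGTGagcgactcgc
Chrna5 at -224 (chr9:54981254-54981279, plus strand): acagtcttcgCACCTGtcacaattct
Chrna5 at -172 (chr9:54981306-54981331, plus strand): aaggtagcacCAGGTGtgggaaaggc
These matches describe letters in a window, and binding of Zeb2 to them was not tested. Genes with the motif included the member that differed most (Lypd6) and the one with the fewest counts (Chrna5), and the windows of Chrna3, Chrna4, Chrna7 and Chrnb2 had none.

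Lypd6 (ENSMUSG00000050447, chromosome 2, 50066429 to 50193569, plus strand) encodes a membrane-anchored Ly6 protein that increases calcium entry through nicotinic receptors. In the 6 controls it ranged from 3.67 CPM through a median of 5.50 CPM to 8.61 CPM. The 5 mutants read 20.2, 27.8, 35.0, 31.5 and 21.4 CPM. Every mutant library was above every control library, with a wide gap between them. The means were 5.99 ± 2.14 CPM (SD, n = 6) and 27.2 ± 6.36 CPM (SD, n = 5), a log2 fold change of 2.17 (SE 0.266), or 4.52-fold. These levels rest on 33 to 107 reads per control library and 258 to 420 per mutant library. The counting interval of the highest control (7.05 to 10.4 CPM, exact Poisson, 95%) lay below that of the lowest mutant (17.8 to 22.8 CPM), and such intervals cover counting error only.

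The difference in Lypd6 was no smaller among libraries alike in Y-linked counts. Controls without Y-linked counts read 3.67 and 4.18 CPM, and controls with them 4.90 to 8.61 CPM. With only the 7 libraries without Y-linked counts the log2 fold change was 2.79 (SE 0.345). Lypd6 was the 1 member past the threshold in that fit, in which 1.46% of all genes tested were called. It was past the threshold in 21 of 21 distinct alternative fits, at log2 fold changes of 2.06 to 2.84.

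Lypd6b (ENSMUSG00000026765, chromosome 2, 49787688 to 49948849, plus strand) is the nearest relative of Lypd6 and lies 118 kb before it on the same strand. Its controls ranged from 0.744 CPM through a median of 2.27 CPM to 3.78 CPM. Its mutants read 11.8, 6.12, 7.65, 5.62 and 9.97 CPM. No mutant library fell within the range of the controls, though the margin was smaller than for Lypd6. The means were 2.15 ± 1.21 CPM (SD, n = 6) and 8.24 ± 2.62 CPM (SD, n = 5), and the log2 fold change was 1.92 (SE 0.421). With 5 to 47 reads per control library this gene was counted more thinly, and its adjusted p passed 0.05 in 17 of 21 of these fits, not in those with libraries lacking Y-linked counts (log2 fold change 1.65), with the Y-linked level as a covariate (1.71), with a replicate block (2.08) or without mutant 1 (1.75).

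Shared reads between the relatives were looked for in the annotated transcripts. The longest identical run between Lypd6 and Lypd6b was 13 bases, and no pair of members shared more than 23 bases. Within the mutants the order of libraries was not the same for both genes: Lypd6 was highest in mutant 3, and Lypd6b in mutant 1, where Lypd6 was lowest. Per kilobase of exon, Lypd6 stood at 0.963 to 7.51 times Lypd6b in the controls and at 1.19 to 3.91 times in the mutants, ranges that overlap.

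Both genes lie on the same side of Zeb2 on chromosome 2, at higher coordinates. Lypd6b starts 4.67 Mb and Lypd6 4.95 Mb past the highest coordinate of Zeb2, whichever way Zeb2 is read. The tested neighbours on either side of the pair did not follow them. Kif5c, a neuronal kinesin heavy chain before Lypd6b, read 165 to 377 CPM in the controls and 177 to 325 CPM in the mutants (log2 fold change -0.02, SE 0.199, edgeR adjusted p = 0.98). Mmadhc, a gene of vitamin B12 handling beyond Lypd6, had a log2 fold change of -0.33 (SE 0.150, adjusted p = 0.275). Of the 6 tested genes between Zeb2 and Lypd6b, edgeR called 0, beside 4.42% of all tested genes. Their log2 fold changes were -0.02 to 0.60. Of these 6, 1 had an unadjusted p under 0.05, and DESeq2 and limma-voom also called 0. Within 5 Mb on both sides of Zeb2, 14 genes other than the pair were tested. Of these 14, edgeR called 0, with 4 at an unadjusted p under 0.05, DESeq2 called 1 and limma-voom 0.

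Within 10 Mb of Zeb2, 7 of 74 tested genes were past the threshold. Without the pair of members 5 of 72 remained past it, 6.94% beside 4.42% of all tested genes, with a median log2 fold change of 0.00. Higher among them was Lhx6, a homeodomain factor of interneurons born in the medial ganglionic eminence (MGE), at a log2 fold change of 1.94 (SE 0.151, adjusted p = 2.02e-06). Among the lower ones were Gsn, the actin-severing protein gelsolin (-0.99, adjusted p = 0.00837), and Nek6, a mitotic kinase (-0.54, adjusted p = 0.0265). The lowest log2 fold change in the window was that of Tnfaip6, a hyaluronan-binding protein gene farther out than Lypd6 on its side (-1.69, adjusted p = 0.0333), named after its value was seen. Within 20 Mb the share without the members was 3.69%, 10 of 271. These shares lay on either side of that over all genes, and nothing is read from them.

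**Figure D2:**
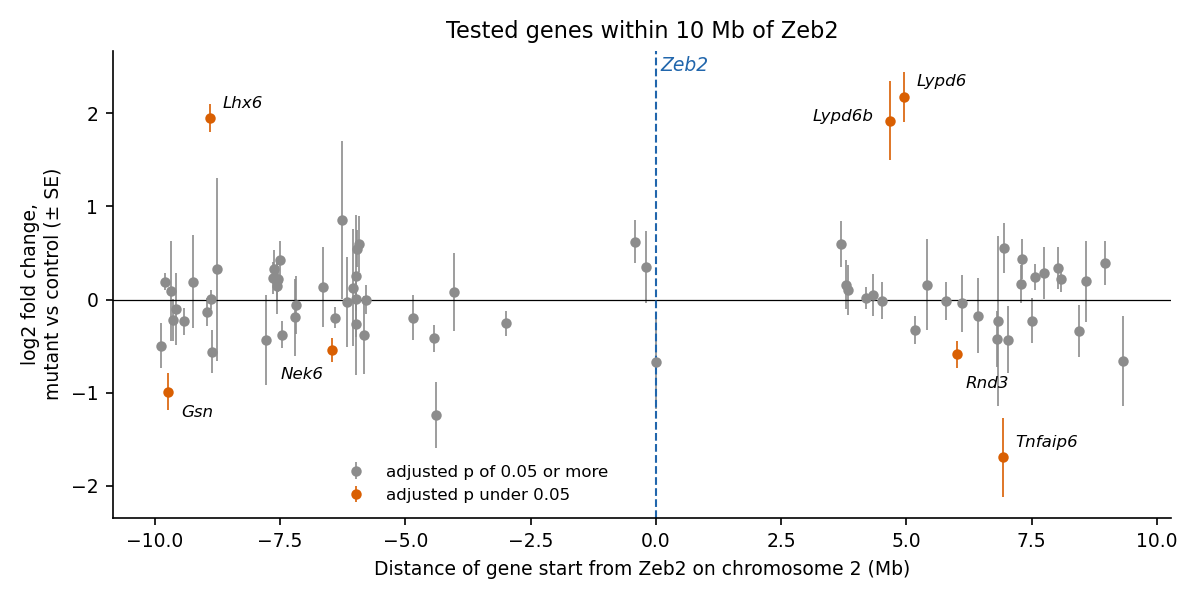
Log2 fold change (mutant against control, with 1 SE) of the 74 tested genes within 10 Mb of Zeb2, plotted by the distance of each gene from Zeb2 in Mb; orange points have an adjusted p under 0.05. Lypd6 and Lypd6b stand at 2.17 and 1.92, the 6 tested genes between Zeb2 and Lypd6b at -0.02 to 0.60, and Tnfaip6 farther out at -1.69. Lhx6, on the other side of Zeb2, is at 1.94.

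Genes that shared the pattern of Lypd6 over the 11 libraries were sought by the root mean square difference of log2(CPM + 1), each gene taken relative to its control mean, among 13932 genes with a mean of at least 1 CPM. The closest were Dab1, an adaptor of the reelin pathway, at 0.297, Adcy8, a calcium-activated adenylyl cyclase, at 0.306, and Lhx6 at 0.333. Dab1 read 40.8 to 61.5 CPM in the controls and 194 to 306 CPM in the mutants. For Lypd6b the closest were Epb41l4b (0.332), Rbm45 (0.379) and Adra1a, an adrenergic receptor (0.380). Much of the likeness is the difference between groups that all of these genes share.

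Markers of MGE interneurons moved with Lypd6 and Lypd6b. Of the 7 tested genes of that list 5 were higher, and the summed level of all 8 was 402 to 678 CPM in the controls and 2542 to 3610 CPM in the mutants. Sst, the peptide somatostatin, read 46.0 to 115 CPM in the controls and 514 to 788 CPM in the mutants (log2 fold change 2.82, SE 0.210, adjusted p = 1.31e-06). Taken per kilobase, Lypd6 stood at 0.050 to 0.097 of Lhx6 in the controls and at 0.060 to 0.120 of it in the mutants, and at 0.138 to 0.310 and 0.137 to 0.233 of Sox6, another factor of that lineage. These ratios overlapped between the groups where the level of Lypd6 in CPM did not. Lhx6 and Sox6 had log2 fold changes of 1.94 and 2.40, near the 2.17 of Lypd6. The overlap follows from that likeness, and nothing about shared cells is read from it. Relative to Sst, the median for Lypd6 was 0.0127 among control libraries and 0.0081 among mutant ones. Relative to Nkx2-1, also of that lineage, the medians were 0.357 and 0.322. The ranges overlapped for each. The part of MGE interneurons in the levels of Lypd6 and Lypd6b was not tested.

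**Figure D3:**
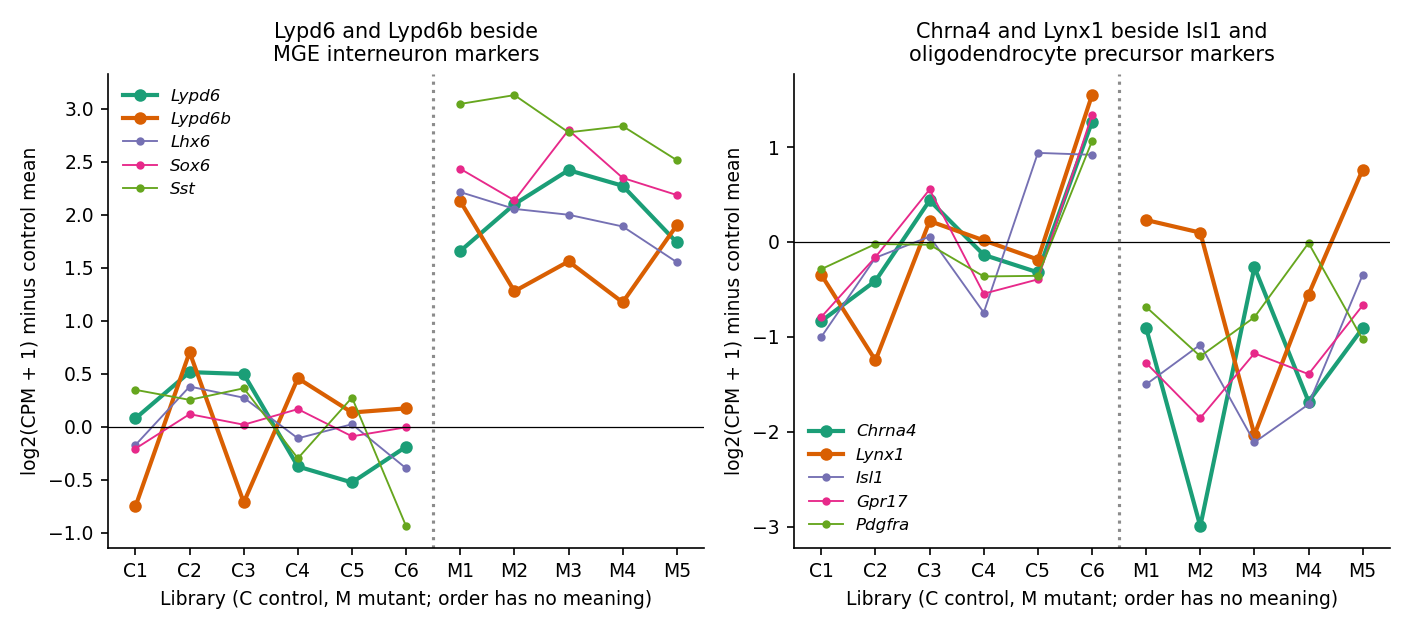
Levels per library as log2(CPM + 1) minus the control mean; lines only join the points of a gene within a group. On the left Lypd6 and Lypd6b lie with Lhx6, Sox6 and Sst above 1 in each mutant library and under 1 in each control. On the right Chrna4 and Lynx1 both peak in control 6, as do the oligodendrocyte precursor markers Gpr17 and Pdgfra.

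Lypd1 (ENSMUSG00000026344, chromosome 1, 125867622 to 125913101, minus strand), also called Lynx2, lowers the response of receptors with alpha4 and beta2. Its level was 18.1 to 47.9 CPM in the controls, with a median of 31.8 CPM. In the mutants it was 53.8, 50.4, 56.5, 41.1 and 63.5 CPM. The groups overlapped, as controls 5 and 6 (43.3 and 47.9 CPM) lay above mutant 4. The means were 33.6 ± 10.7 CPM (SD, n = 6) and 53.0 ± 8.23 CPM (SD, n = 5), with a log2 fold change of 0.66 (SE 0.213), and of 0.78 without control 6, where it was past the threshold. Its exons overlap those of Gpr39 on the opposite strand over 1202 bases, and as the strand setting of the counting is not given in the sources used here, reads there could belong to either gene; Gpr39 itself was at 0.6 CPM or less in each library.

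Lynx1 (ENSMUSG00000022594, chromosome 15, 74747852 to 74753046, minus strand) is the best-known brake on nicotinic receptors in the mature cortex. Its controls ranged from 1.29 CPM through a median of 4.14 CPM to 14.9 CPM, and its mutants read 5.38, 4.82, 0.328, 2.70 and 8.22 CPM. The ranges overlapped almost fully, and control 6 alone lay above every mutant. The log2 fold change was -0.36 (SE 0.636), and 0.25 without control 6, so no direction can be given.

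Among the subunits Chrnb2 (ENSMUSG00000027950, chromosome 3, 89746195 to 89764632, minus strand), the beta subunit of the main forebrain receptor, was the most abundant. It was 128 to 191 CPM in the controls, with a median of 169 CPM, and 199, 237, 193, 200.4 and 223 CPM in the mutants. The groups did not overlap, but the highest control and the lowest mutant were nearly level. The means were 163 ± 27.8 CPM (SD, n = 6) and 210 ± 18.4 CPM (SD, n = 5), 1.29-fold apart, with a log2 fold change of 0.37 (SE 0.124). Its exons overlap 1365 bases of Adar, an RNA-editing enzyme on the opposite strand, which read 105 to 147 CPM in the controls and 108 to 215 CPM in the mutants (log2 fold change 0.31, adjusted p = 0.331).

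Chrna4 (ENSMUSG00000027577, chromosome 2, 181018380 to 181043546, minus strand), the alpha partner of Chrnb2, had the opposite sign. Its controls ranged from 16.1 CPM through a median of 25.0 CPM to 72.1 CPM. Its mutants read 15.2, 2.81, 24.3, 8.47 and 15.2 CPM. All 5 mutants were below the control mean of 33.4 ± 20.6 CPM (SD, n = 6), and 4 of the 5 were below the lowest control, but mutant 3 lay within the control range. The mutant mean was 13.2 ± 8.08 CPM (SD, n = 5), and the log2 fold change was -1.34 (SE 0.465), or -0.96 without control 6.

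Control 6, the highest library for Chrna4 and Lynx1, was also the highest for oligodendrocyte precursor markers. Their sum was 2410 CPM there, 807 CPM in the lowest control and 602 to 963 CPM in the mutants. The same library was highest for summed endothelial and mural markers (45.4 CPM) and microglia markers (8.69 CPM). Among the mutants the precursor sum was highest in mutant 4, where Chrna4 read 8.47 CPM. Chrna4 was highest in mutant 3 (24.3 CPM), where that sum was 803 CPM. Of the 6 precursor markers, all tested, 1 was lower in the mutants, Gpr17 (log2 fold change -1.44, edgeR adjusted p = 0.0295), and 0 higher. Over all tested genes 4.42% were called in either direction. Isl1, a homeodomain factor of striatal and cholinergic neurons, read 17.7 to 70.7 CPM in the controls and 7.7 to 28.4 CPM in the mutants (log2 fold change -1.46, adjusted p = 0.0555). The part of any of these cell types in the level of Chrna4 was not tested.

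Chrna3, Chrna5 and the partner gene Chrnb4 form a cluster on chromosome 9 that spans 67.9 kb, with 2.33 kb between Chrna5 and Chrna3. Chrna3 (ENSMUSG00000032303, 55010111 to 55026562, minus strand), the alpha subunit of ganglionic receptors, was low: 1.49 to 6.02 CPM in the controls, with a median of 3.88 CPM, and 0.615, 6.42, 1.97, 0.375 and 2.82 CPM in the mutants. Mutant 2 was the highest of all 11 libraries and mutant 4 the lowest, so the groups overlapped throughout (log2 fold change -0.70, SE 0.616). The size rested on single libraries, at -1.44 without mutant 2, -0.42 without mutant 4 and -0.45 without mutant 1, and it was -1.44 with limma-voom. Chrna5 (ENSMUSG00000035594, 54980880 to 55007779, plus strand) had 17 reads in all, in 4 of 11 libraries: 3, 2 and 6 in controls 1, 3 and 5 and 6 in mutant 1. Where it had 0 reads, the depth allowed up to 0.225 to 0.328 CPM (3 reads), so no difference was detectable at this depth.

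Chrna7 (ENSMUSG00000030525, chromosome 7, 63098692 to 63212569, minus strand), whose protein forms receptors with high calcium permeability, ranged from 2.57 CPM through a median of 3.01 CPM to 7.22 CPM in the controls. In the mutants it read 2.92, 4.11, 5.58, 1.35 and 0 CPM. Mutant 5 had no read, which allows up to 0.249 CPM and lies below the counting interval of each other library. The groups overlapped, with means of 3.63 ± 1.78 CPM (SD, n = 6) and 2.79 ± 2.20 CPM (SD, n = 5) and a log2 fold change of -0.39 (SE 0.695). That value was -0.07 without mutant 5 or without control 5, -0.21 without mutant 4, -0.80 without mutant 3 and -1.50 with limma-voom.

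Levels of different genes were compared per kilobase of annotated exon. In the controls the order was Chrnb2 (19.4 ± 3.31 CPM per kb), Chrna4 (6.64 ± 4.10), Lypd1 (4.77 ± 1.52), Lypd6 (1.61 ± 0.574), Lynx1 (1.18 ± 1.03), Lypd6b (0.824 ± 0.464), Chrna7 (0.807 ± 0.396), Chrna3 (0.745 ± 0.305) and Chrna5 (0.07 ± 0.09), all SD with n = 6. Neighbours in that order had control libraries that did not overlap only between Chrnb2 and Chrna4, between Lypd1 and Lypd6, and between Chrna3 and Chrna5. In the mutants the order of means became Chrnb2 (25.1), Lypd1 (7.54), Lypd6 (7.29), Lypd6b (3.16), Chrna4 (2.63), Lynx1 (0.920), Chrna7 (0.620), Chrna3 (0.464) and Chrna5 (0.029) CPM per kb. Lypd6 was thus close to Lypd1 in the mutants, at 0.637 to 1.45 of its level, where in the controls it was at 0.160 to 0.634.

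**Figure D4:**
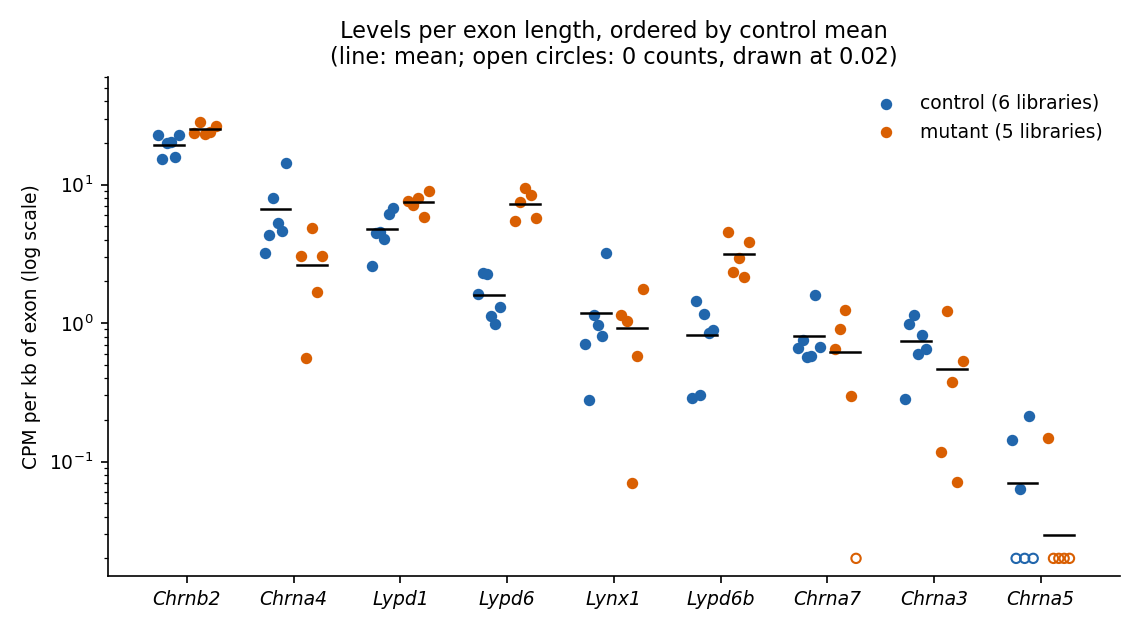
CPM per kb of exon (log axis) in each library, genes ordered by their control mean (line); open circles are libraries with 0 counts, drawn at 0.02. Chrnb2 lies above every other member in all libraries, and Lypd6b lies above Chrna4 in the mutant means (3.16 against 2.63) but below it in the control means (0.824 against 6.64).

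The mix of subunit messages was summarised as the share of each gene in the summed CPM per kb of the 5 subunits. Chrnb2 made up 71.0% ± 8.45 (SD, n = 6) in the controls, from 59.2% to 84.2%, and 87.1% ± 5.59 (SD, n = 5) in the mutants, from 78.2% to 92.1%. Chrna4 made up 22.8% ± 8.60 (SD, n = 6) and 9.13% ± 5.41 (SD, n = 5). Chrnb2 exceeded Chrna4 by 1.58 to 7.13 times in the controls and by 4.78 to 50.5 times in the mutants, so the ranges overlapped between control 1 and mutant 3. The remaining alpha subunits each averaged 3.13% or less in both groups. These are shares of RNA, which do not give the make-up of receptors.

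A wider list of 55 related genes, written with earlier results of these data known, places the members among the other parts of cholinergic signalling. Of these, 54 were found among the counted genes, and Slc18a3 was not matched. Only 16 had enough counts to be tested, of which 2 were higher, 1 was lower and 13 were not past the threshold, a share of 18.8% with a median log2 fold change of 0.08. Over all tested genes the share was 4.42%. As the list was written with earlier results known, nothing is read from the difference.

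Subunits outside the set were scarce. None of the 11 had enough counts for the test, and Chrna2, Chrna6 and Chrna9 had no reads in any library. The highest value among the 11 was 3.46 CPM, for Chrnb4 in control 2, and Chrnb4 was at 0 in 3 of the 6 controls and 4 of the 5 mutants. Other members of the Ly6 family were mostly low as well: 2 of 23 were tested, 7 had no reads in any library, and the highest value among the untested was 6.07 CPM.

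The tested Ly6 genes were Ly6h and Ly6e. Ly6h, a brain Ly6 protein that limits alpha7 receptors at the cell surface, ranged from 58.9 to 81.9 CPM in the controls. The mutants read 101, 120, 94.0, 109 and 151 CPM. The groups did not overlap, and the level rose by a log2 fold change of 0.73 (SE 0.141, edgeR adjusted p = 0.00639). Ly6e, a broadly expressed Ly6 protein, had a log2 fold change of -0.04 (adjusted p = 0.944).

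Genes of receptor assembly and trafficking were the best-covered list, with 7 of 8 tested. Vsnl1, the calcium sensor visinin-like 1, which promotes surface delivery of receptors with alpha4 and beta2, read 15.6 to 27.5 CPM in the controls and 45.0, 37.0, 63.4, 43.0 and 31.7 CPM in the mutants. It rose without overlap between the groups (log2 fold change 1.16, SE 0.207, adjusted p = 0.00377). Tmem35a, the chaperone NACHO, stood at 220 to 271 CPM in the controls and 199 to 219 CPM in the mutants (log2 fold change -0.20, adjusted p = 0.249). Every mutant thus lay below every control for Tmem35a, by a small margin and without passing the threshold. Apc, a Wnt pathway scaffold that also gathers receptors at synapses, read 86.1 to 349.8 CPM in the controls and 264 to 328 CPM in the mutants (log2 fold change 0.52, adjusted p = 0.404). Ywhah, an adaptor protein that binds alpha4, had a log2 fold change of 0.10 (adjusted p = 0.724).

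Genes that make, move or break down acetylcholine gave no call in 3 tested. Chat, the synthesising enzyme that defines cholinergic neurons, had no reads in any of the 11 libraries, and the summed cholinergic markers were 22.2 to 79.4 CPM in the controls and 9.73 to 31.8 CPM in the mutants, mostly from Isl1. Ache, the degrading enzyme, read 4.6 to 31.7 CPM in the controls and 14.6 to 18.0 CPM in the mutants (log2 fold change -0.01). Of the 4 tested muscarinic receptors, Chrm1, the Gq-coupled M1 receptor, fell by 1.07 on the log2 scale (SE 0.225, adjusted p = 0.0119). It read 55.3 to 105 CPM in the controls and 29.9, 46.9, 32.8, 24.4 and 59.0 CPM in the mutants, mutant 5 lying above control 1. Chrm2 (log2 fold change 1.05, SE 0.590, adjusted p = 0.393) and Chrm4 (0.12, adjusted p = 0.859) did not pass the test.

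Ly6h, Vsnl1 and Chrm1 each passed in 19 of 21 alternative fits. In the libraries without Y-linked counts their log2 fold changes were 0.68, 1.04 and -1.20, and edgeR then called 0 of 20 tested genes of the wider list, with 4 at an unadjusted p under 0.05. With the Y-linked level as a covariate edgeR called 0 of 16, with 3 at an unadjusted p under 0.05, whereas DESeq2 and limma-voom on all libraries each called 3. The sizes in the restricted libraries were thus close to those over all 11, while the adjusted p-values of the 3 genes were 0.106 to 0.202.

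**Figure D5:**
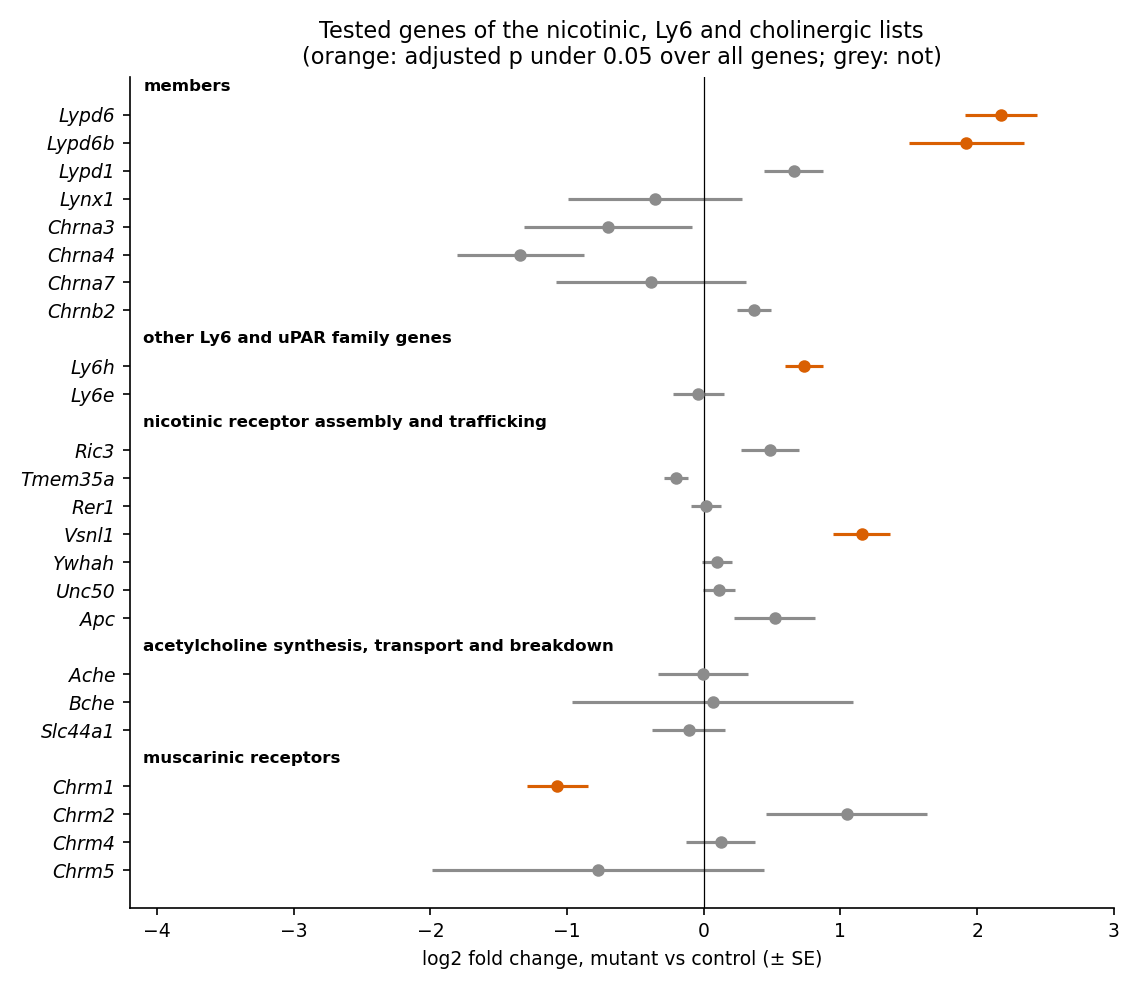
Log2 fold change (mutant against control, with 1 SE) of the 8 tested members and the 16 tested genes of the wider lists, by list; orange marks an adjusted p under 0.05. Lypd6 and Lypd6b are at 2.17 and 1.92, Vsnl1 and Ly6h at 1.16 and 0.73, and Chrm1 at -1.07.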

How the data were processed

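Per the labels' protocols, RNA of GFP-positive V-SVZ cells was purified with Trizol LS plus an RNeasy Micro kit, and TruSeq libraries were sequenced. The authors deposited 1 table of unnormalised counts for each Ensembl gene. The submitters' processing notes name TopHat2 2.0.13 and featureCounts 1.4.6 with mm10 (GRCm38); whether counting used strand is not given in the sources used here.

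Members and lists were chosen with earlier results of these data known. Symbols (37693 of 39179 identifiers, at least 99.67% of counts) and coordinates came from GENCODE M21 on GRCm38, and the union of exons per gene gave CPM per kb. Named genes were the 9 members, genes past the threshold and up to 3 of the highest mean CPM in each wider list, up to 6 past it and the neighbours of the pair near Zeb2, selected markers, and the 3 most alike genes. Tests used the quasi-likelihood method of edgeR 4.0.16 under R 4.3.3 (filterByExpr, TMM, robust fit, Benjamini-Hochberg over 14104 genes, threshold 0.05). The SE given with an edgeR log2 fold change was derived from that test. It is the absolute log2 fold change divided by the square root of the quasi-likelihood F statistic. Replicate libraries differed beyond sampling noise (chi-square over its degrees of freedom was 13.7 or more). On simulated data for this comparison with 14104 genes and 200 changed, 54% of 2-fold and 74% of 4-fold changes were recovered, and 6 of 134 calls were false. Alternatives (22 settings, 21 distinct fits, since libraries 1 to 5 without the block are the fit without control 6) used DESeq2 1.42.0, limma 3.58.1, other scalings, filters and sets of libraries. Python 3.11.15 and scipy 1.17.1 were used for intervals.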

Additional observations from a re-analysis of the deposited data

Results flagged for a closer look

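Across 24 sets of values (the 9 members, Ly6h, Vsnl1 and Chrm1, each in the controls and in the mutants), 3 held a library that stood far from the others by Dixon's criterion, which chance meets in about 1 set in 20. Lynx1 was 14.9 CPM in control 6, where the other controls lay between 1.29 and 5.33 CPM. Chrna5 was 0.461 CPM in mutant 1, from 6 reads, where the other mutants had none. With every other value at 0, any count in that library would have met the criterion. The rate of 1 in 20 does not hold for such a set, so nothing is read from the Chrna5 flag. Chrna7 was 7.22 CPM in control 5, where the other controls lay between 2.57 and 3.38 CPM.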

How the results depend on the processing

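Against 623 genes past the threshold over all tested, DESeq2 called 1109, libraries without Y-linked counts 218 and the Y-linked level as a covariate 189; leaving out 1 library gave 418 to 656. Members past the threshold (2) became 4 with DESeq2, which added Lypd1 and Chrna4 (log2 fold change -1.33), 1 in libraries without Y-linked counts, 1 with the Y-linked covariate and 1 to 3 on leaving out 1 library; only mutant 1 took the number to 1. Wider-list calls (3) became 0 in both fits that take Y-linked counts into account and were 3 to 4 on leaving out 1 library. Calls within 10 Mb of Zeb2 (7) became 3, 2 and 3 to 8 in the same order, the lowest on leaving out 1 library being without mutant 1. They were 4 with the replicate block, 8 with DESeq2 and 10 without both control 6 and mutant 5. Other windows gave 2 within 5 Mb and 12 within 20 Mb. Of 8 neighbours in the order of control levels, 7 kept it with the longest transcript as length and 6 to 8 on leaving out 1 library. Lynx1 turned to 0.068 with the replicate block, 0.25 in libraries 1 to 5 without it, 0.065 in libraries without Y-linked counts, and -0.74 to 0.25 on leaving out 1 library. The numbers do not pair the libraries: same-numbered libraries correlated at -0.14 to 0.02 and 1 of 5 matched its own number best. With the replicate block over libraries 1 to 5, 421 genes were called, Lypd6b was lost at 2.08 and Lypd1 passed at 0.82; Lypd1 also passed in the same libraries unblocked (0.78). Differences of low genes (Chrna3, Chrna5, Chrna7, Lynx1) are limited by depth.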
